A study of Homo sapiens with 8 samples.

Results

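RELN and SCG2, the genes of reelin and of secretogranin II, are 2 of the 14884 gene symbols measured on Affymetrix whole-transcript arrays in a pair of human liver-derived cell lines treated with an epigenetic inhibitor. Each gene had 1 probe set with its symbol in the platform annotation, and the values are log2 expression values normalized with RMA by the authors. The groups were LX2 with CM272, LX2 control, HepG2 with CM272 and HepG2 control, with 2 arrays in each, so that n is 2 for every mean and SD below. LX2 is a line of hepatic stellate cells, the cells that make scar matrix in injured liver, and HepG2 is a hepatoma (liver tumour) line. CM272, an inhibitor of G9a, which methylates histone H3, and of the maintenance DNA methyltransferase DNMT1, was given at 400 nM for 48 h, and controls received 0.1% DMSO for the same time. HepG2 was kept in 10% serum and LX2 in 2%, so line and serum cannot be told apart. Each line is a single established line, and the labels do not state whether the paired arrays of a group are separate cultures, so the p-values speak of array-to-array spread, which may be technical.

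Both genes were selected on measured values of these arrays. RELN was chosen by its levels because it was bright in control HepG2 and dim in control LX2, and both genes because their rise in LX2 with CM272 was known. Those differences are therefore given as a description without a test. The response of RELN in HepG2 is a description too, since it rests on the HepG2 control arrays in which the gene was picked as bright. The response of SCG2 in HepG2 took no part in the choice and was tested. Genes were tested when both arrays of at least 1 group lay over log2 4, which left 12239 genes. RELN passed that filter in all 4 groups, and SCG2 passed it only through the LX2 CM272 group, in which it was highest. SCG2 was therefore tested in HepG2 only because of that group, and its test there cannot show that a response was absent.

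Reelin is a large secreted glycoprotein best known from the Cajal-Retzius cells of the developing cortex. It binds the lipoprotein receptors VLDLR and LRP8 (ApoER2) on migrating neurons, and SRC-family kinases then phosphorylate the adaptor DAB1. In liver it has been described in stellate cells, and RELN transcription is known to be sensitive to DNA methylation in cultured cells. Secretogranin II belongs to the granins, acidic proteins stored in the dense-core vesicles of neurons and endocrine cells, where prohormone convertases cut it to peptides such as secretoneurin. The repressor REST, which can recruit G9a, keeps many neuronal genes silent outside the nervous system.

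The RELN promoter is shown because DNMT1 acts on CpG dinucleotides and this window is dense in them. It is the 250 bases before the annotated start, chr7:103989659-103989908 on the minus strand (RefSeq, GRCh38.p14), written 5′ to 3′ with each CpG in capitals. 1 of the 2 genes had an entry in the promoter table. No methylation was measured here.
RELN promoter: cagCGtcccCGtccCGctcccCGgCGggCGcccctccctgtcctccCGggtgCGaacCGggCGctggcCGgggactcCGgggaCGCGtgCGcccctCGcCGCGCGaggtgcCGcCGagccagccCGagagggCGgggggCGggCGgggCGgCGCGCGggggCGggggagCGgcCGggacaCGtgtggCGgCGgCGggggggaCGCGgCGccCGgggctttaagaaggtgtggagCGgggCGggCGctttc
The window held 43 CpGs, against a median of 11 in the same window of 35114 promoters, of which 1.02% held at least as many. Its GC content was 83.2% and the observed over expected CpG ratio was 1.02. GC boxes (GGGCGG on either strand, each of which contains a CpG) occurred 6 times, and 42.6% of promoters held at least 1. E-boxes (CANNTG) occurred 1 time, against 61.8% of promoters with at least 1. The AP-1 element TGANTCA (both strands, 6.57% of promoters) and the cAMP response element TGACGTCA (1.65%) had 0 matches in these letters.

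RELN (probe set 17061298) was one of the strongest risers in LX2 with CM272 and was brightest in HepG2 whatever the treatment. Its log2 values were 8.71 and 8.52 in LX2 with CM272, against 4.59 and 4.77 in LX2 control. The groups lay 3.75 apart at their closest arrays, where 23.5% of all genes had both treated arrays above both control arrays. The means were 8.61 ± 0.13 with CM272 and 4.68 ± 0.13 in control (SD), a difference of 3.93, or 15.3-fold on the log2 scale of the arrays. RMA compresses folds of dim probe sets, so the control level limits how exact that fold is. Among the 12239 genes this was the rank 6 rise in LX2.

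In HepG2 the RELN values were 11.31 and 11.40 with CM272, against 11.03 and 11.12 in control. Both treated arrays lay above both control arrays, by 0.20 at the closest, but so did the treated arrays of 20.7% of all genes in this comparison. The means were 11.36 ± 0.07 and 11.07 ± 0.06 (SD), a difference of 0.29 or 1.22-fold. Over 18 alternative settings the difference lay between 0.24 and 0.33.

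Untreated, HepG2 exceeded LX2 in RELN by 6.39 log2 (11.07 ± 0.06 against 4.68 ± 0.13, SD), the contrast on which the gene was picked. Both HepG2 control arrays lay above both LX2 control arrays in 27.6% of all genes, and below them in 55.8%. With CM272 in both lines HepG2 exceeded LX2 by 2.74 log2. The order of the 4 groups was therefore HepG2 with CM272, HepG2 control, LX2 with CM272 and LX2 control. Every neighbouring pair in that order was separated at its closest arrays, and the HepG2 pair was the closest. Both CM272 arrays lay above both control arrays in 20.7% of all genes in HepG2 and in 23.5% in LX2. That share was not computed for HepG2 control against LX2 with CM272. Set against each other, the CM272 change was 3.65 log2 smaller in HepG2 than in LX2 (HepG2 minus LX2, -3.65). The LX2 change and the line difference share the LX2 control arrays, so they are not independent of each other.

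SCG2 (probe set 16908977) followed another pattern, with its highest level in LX2 with CM272 and values near or under the brightness filter in the other groups. Its log2 values were 4.87 and 4.93 in LX2 with CM272, against 3.87 and 4.21 in LX2 control. The groups did not overlap and lay 0.65 apart at their closest arrays, with more spread in control, where 23.5% of all genes were likewise higher without overlap. The means were 4.90 ± 0.04 and 4.04 ± 0.24 (SD), a difference of 0.86 or 1.81-fold, the rank 210 rise of 12239. The difference was 1.03 without LX2 control replicate 2 and 0.69 without LX2 control replicate 1. One LX2 control array lay under the brightness filter and the other just over it, so the fold may be understated.

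In HepG2 SCG2 read 3.25 and 3.16 with CM272, against 2.96 and 3.19 in control, and the arrays of the groups overlapped. All 4 values lay under the filter of log2 4. The means were 3.20 ± 0.06 and 3.07 ± 0.17 (SD), a difference of 0.13 (SE 0.16, limma adjusted p = 0.816) with a 95% interval from -0.23 to 0.49, which at this brightness says little about a small change. Both HepG2 control arrays lay below both LX2 control arrays (means 3.07 ± 0.17 against 4.04 ± 0.24, SD), as in 55.8% of all genes. Nearly all of these values were under the filter, so neither the size of that difference nor an order of the dim groups can be read from them. The CM272 change in HepG2 less that in LX2, which rests on the same dim values, was -0.72 log2, and it was -0.55 without LX2 control replicate 1 and -0.89 without LX2 control replicate 2.

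**Figure D1:**
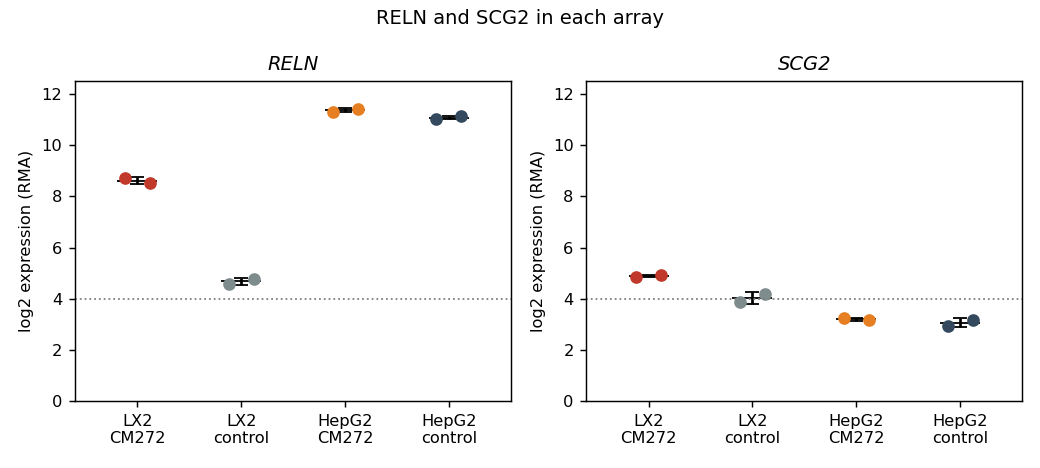
Log2 expression of RELN and SCG2 (vertical axis) in the 8 arrays by group; points are arrays, bars are the mean ± SD of 2 arrays, and the dotted line is the brightness filter of log2 4. RELN sits at 8.71 and 8.52 in LX2 with CM272, against 4.59 and 4.77 in LX2 control, and above 11 in all HepG2 arrays, while SCG2 is highest in LX2 with CM272 and under the filter in all HepG2 arrays.

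The arrays matched their labels. All 12 tested hepatocyte markers, among them ALB and APOB, were higher in HepG2 control than in LX2 control, where 17.7% of all genes were higher. Of 5 tested stellate and myofibroblast markers 4, VIM, LOX, TAGLN and THY1, were lower, against 40.5% of all genes. The remaining one, DES, went the other way, with a mean of 5.91 in HepG2 control against 5.58 in LX2 control, and did not pass. COL1A1, ACTA2 and PDGFRB, defining genes of activated stellate cells, had no named probe set and were not analysed here, and LRAT, an enzyme of retinoid storage, and DCN, decorin, were too dim to test. With CM272 in LX2 LOX, a collagen-crosslinking enzyme, fell by 1.01 and DES, desmin, rose by 1.25 (limma adjusted p = 0.00638 and 0.0287), and the mean log2 level of all 7 stellate and myofibroblast markers with a named probe set was 6.01 to 6.09 against 6.12 to 6.24 in LX2 control. The part of this in the levels of RELN and SCG2 was not tested. None of the 4 tested neuronal and neuroendocrine markers changed with CM272 in LX2 in limma (0 called, 1 at an unadjusted p under 0.05, against 25.3% of all genes), and the mean log2 level of all 5 with a named probe set, the dim STMN2 included, was 4.71 to 4.81 in LX2 with CM272 against 4.62 to 4.69 in LX2 control. Among the LX2 arrays the 2 with CM272 were the least alike of any group (r = 0.978 across genes, which are not independent replicates, against 0.993 in LX2 control). The RELN difference in LX2 was 3.84 without LX2 CM272 replicate 1 and 4.03 without LX2 CM272 replicate 2.

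A small number of reelin pathway genes passed the test in LX2 with CM272, and the tested receptor did not. VLDLR, the tested reelin receptor, read 4.62 and 5.01 in LX2 with CM272 against 4.99 and 5.17 in LX2 control, a change of -0.27 (SE 0.17, limma adjusted p = 0.356). LRP8 was not analysed here, and DAB1 was too dim to test (3.27 and 4.05 with CM272, against 3.91 and 3.92 in control). Of 20 tested genes of reelin reception and signalling 2 rose and 1 fell, against a background of 3.79% of all genes higher and 4.63% lower, and 10 had an unadjusted p under 0.05, against 25.3% of all genes. MYLIP, a ubiquitin ligase that degrades VLDLR and LRP8, rose by 0.96 (SE 0.15) and EFNB1, an ephrin of the B class, by 0.69 (SE 0.15), and NCK2, an adaptor that binds tyrosine-phosphorylated proteins, fell by 0.64 (SE 0.16; limma adjusted p of 0.00806, 0.0246 and 0.038). The median change of the list was -0.12, against -0.02 over all genes. Of 7 tested genes that cleave reelin or compete for its receptors 1 rose, CLU (clusterin), a further ligand of both receptors (0.52, SE 0.14, limma adjusted p = 0.0451; list median 0.27). None of these 4 calls held without LX2 control replicate 1 or without LX2 control replicate 2, where the changes of MYLIP were 1.01 and 0.91 (adjusted p = 0.0709 and 0.101 in limma). CLU was also lost without LX2 CM272 replicate 1, and CLU and NCK2 without any 1 of the HepG2 arrays, which share the estimate of the spread.

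In untreated HepG2 the reelin receptor stood higher together with several genes around it. VLDLR exceeded its LX2 level by 2.27 (SE 0.17, limma adjusted p = 2e-06), with 7.31 and 7.38 in HepG2 control against 4.99 and 5.17 in LX2 control. CM272 left it at 7.0 and 6.87 in HepG2, a change of -0.41 that did not pass (adjusted p = 0.393 in limma). Among the reelin-cleaving and competing genes 4 of 7 were higher in HepG2, namely the proprotein convertases PCSK6 (2.44) and FURIN (1.35), the receptor ligand APOE (1.64) and THBS1, thrombospondin 1 (0.82), and 0 were lower. The background was 17.7% of genes higher and 40.5% lower, and the median of all genes was -0.27. On quantile-normalized arrays that median was -0.01, and the split of calls was 3206 higher and 3573 lower, against 2161 and 4952 as deposited. Of the 20 signalling genes 3 were higher and 5 lower (median -0.20), with EFNB2, an ephrin of the B class (-3.48), LIMK1, a kinase of the actin regulator cofilin (-1.38), and CDK5 (-1.12) among those lower in HepG2.

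Among the other tested granins SCG5 alone passed the test in LX2. SCG5, the chaperone 7B2 of prohormone convertase 2, rose by 0.76 (SE 0.17, limma adjusted p = 0.0275), with 5.62 and 5.23 in LX2 with CM272 against 4.73 and 4.60 in LX2 control. CHGB, chromogranin B, read 4.23 and 4.0 in LX2 with CM272 against 3.41 and 3.57 in LX2 control (change 0.63, SE 0.17, limma adjusted p = 0.0543), its control arrays under the filter. VGF, a neurotrophin-induced granin, stood at 0.52 (adjusted p = 0.123 in limma) and CHGA, chromogranin A, at 0.24 (0.485), and SCG3, secretogranin III, was too dim to test. PCSK1 and PCSK2, the convertases that process granins, were not analysed here. Of 19 tested genes of the granins and the regulated secretory pathway SCG5 rose and VPS13A, a lipid transfer protein, fell (-0.68, SE 0.14), with a median of -0.06, where 3.79% of all genes rose and 4.63% fell. SCG5 stood at 0.56 without LX2 CM272 replicate 1 (limma adjusted p = 0.0668), at 0.83 without LX2 control replicate 1 (0.129) and at 0.69 without LX2 control replicate 2 (0.201), and the call for VPS13A was lost without the same 3 arrays. The change in HepG2 minus that in LX2 was -1.02 for SCG5 (SE 0.24, limma adjusted p = 0.0739) and did not pass.

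CPE, the carboxypeptidase that trims granin-derived peptides, differed strongly between the lines. Its values were 8.73 and 8.73 in HepG2 control, against 4.54 and 4.55 in LX2 control, a difference of 4.18 (SE 0.13, limma adjusted p = 7.76e-09), and its values with CM272 minus control were -0.14 in LX2 and 0.09 in HepG2, neither past the threshold. In untreated HepG2 4 of the 19 secretory pathway genes were higher and 10 lower than in LX2, near the 17.7% and 40.5% of all genes. CHGB was higher (1.18, SE 0.17), and the vesicle proteins SYT11 (-5.72), SYT1 (-3.37) and SV2A (-2.88) were lower.

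**Figure D2:**
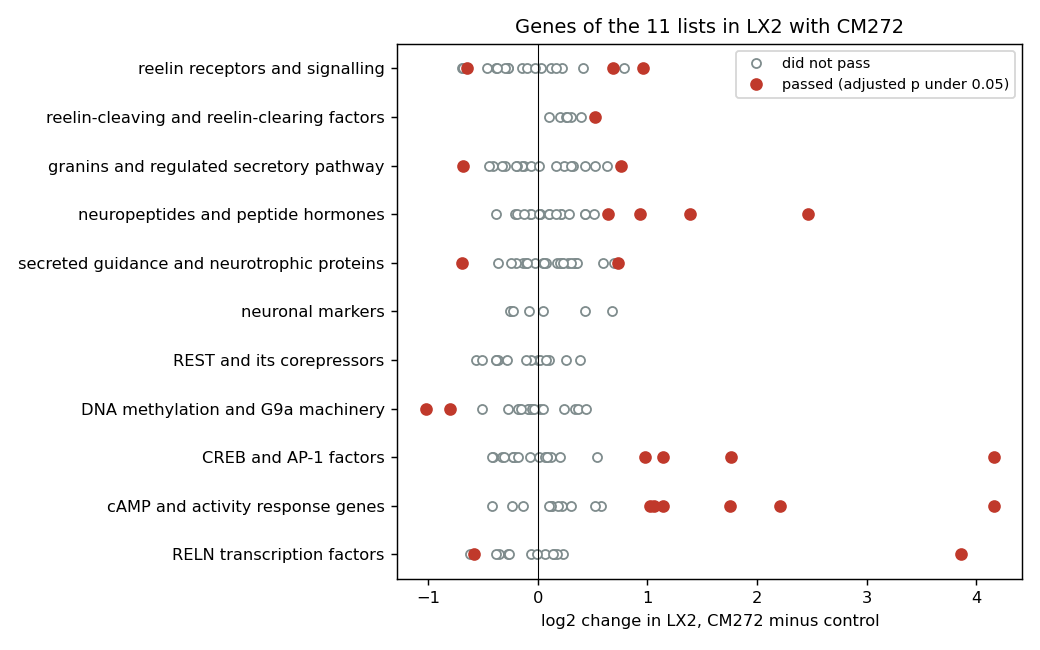
Log2 change in LX2, CM272 minus control (horizontal axis), of the tested genes of 11 lists, RELN and SCG2 left out; each point is a gene, filled where it passed the threshold on the adjusted p. In the reelin lists the calls lie between -0.64 and 0.96, and the largest rises are FOSB at 4.16 and SNAI1 at 3.86.

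Other secreted peptides, hormones and guidance proteins gave a short list of rises in LX2. Of 22 tested neuropeptides and peptide hormones 4 rose and 0 fell (3.79% and 4.63% of all genes), namely NPPC, C-type natriuretic peptide (2.46, SE 0.19), STC1, stanniocalcin 1 (1.39, SE 0.15), ADM, adrenomedullin (0.93, SE 0.16), and UCN2, urocortin 2 (0.64, SE 0.16). Of 23 guidance and neurotrophic proteins NPTX1, neuronal pentraxin 1, rose (0.73, SE 0.18) and THBS2, thrombospondin 2, fell (-0.69, SE 0.18). None of 7 tested neuronal markers passed in limma (0 called, 2 at an unadjusted p under 0.05, against 25.3% of all genes). MAP2, a dendritic cytoskeletal protein, stood at 0.68 and SYP, synaptophysin, at 0.43. In limma the calls for NPPC and STC1 held without each of the 8 arrays in turn, whereas those for ADM, UCN2, NPTX1 and THBS2 were lost without LX2 control replicate 1 and without LX2 control replicate 2. Those for UCN2, NPTX1 and THBS2 were also lost without either HepG2 control array, for NPTX1 and THBS2 without either HepG2 CM272 array, for NPTX1 without LX2 CM272 replicate 1, and for UCN2 and THBS2 without LX2 CM272 replicate 2.

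Neither the transcript of the repressor REST nor those of the targets of CM272 passed the test in LX2. REST read 7.23 and 7.76 in LX2 with CM272 against 7.85 and 7.86 in LX2 control (-0.36, SE 0.18, limma adjusted p = 0.249). None of 14 genes of REST and its corepressors passed in limma (0 called, 5 at an unadjusted p under 0.05, against 25.3% of all genes), with RCOR3 at -0.56 and ZNF217 at -0.51. DNMT1 stood at 0.24 (adjusted p = 0.323) and EHMT2, which encodes G9a, at 0.02 (0.954 in limma). Of 19 genes of DNA methylation and G9a 0 rose and 2 fell (3.79% and 4.63% of all genes), CBX3, a heterochromatin protein (-1.02, SE 0.20), and ZBTB33, the methyl-DNA reader Kaiso (-0.80, SE 0.13), both lost without either LX2 control array (adjusted p of 0.098 to 0.14 in limma). Of 14 transcription factors linked to RELN in other tissues SNAI1, a repressor of epithelial genes, rose (3.86, SE 0.15) and SMAD2, a TGF-beta signal transducer, fell (-0.58, SE 0.13). The SMAD2 call was lost without any 1 of the 4 control arrays.

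Factors that act through cAMP response and AP-1 elements, a class known to drive SCG2 in neurons, rose in part. The lists were drawn up with earlier results of these data known, so their counts are a description and no test of enrichment. Against 3.79% of all genes higher and 4.63% lower, 4 of 20 tested CREB and AP-1 factors rose and 0 fell. These were FOSB (4.16, SE 0.15), ATF3 (1.76, SE 0.21), FOS (1.14, SE 0.16) and JUNB (0.98, SE 0.24). Of 17 genes that respond to cAMP or neuronal activity 6 rose and 0 fell, namely PTGS2, the inducible cyclooxygenase (2.21, SE 0.22), EGR1 and EGR3, immediate-early zinc finger factors (1.75, SE 0.23, and 1.06, SE 0.21), ARC, a synaptic immediate-early protein (1.02, SE 0.16), and FOS and FOSB again. Without LX2 control replicate 2 these counts were 2 and 2, and the calls for FOS and EGR1 were among those lost. The JUNB call was lost without either control array of either line and without LX2 CM272 replicate 1, and those for FOSB, ATF3 and PTGS2 held without each of the 8 arrays.

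Counted once each, the 174 tested genes of the 11 lists gave 18 higher and 6 lower calls in LX2 (3.79% and 4.63% of all genes). As the lists were chosen with earlier results of these data known, no enrichment can be read from this. The counts were 9 and 0 without LX2 control replicate 1, 6 and 0 without LX2 control replicate 2, 29 and 18 without LX2 CM272 replicate 2, and 3 lower without either HepG2 control array. In HepG2 none of them passed in limma (0 called, 24 at an unadjusted p under 0.05), where 0% of all genes were called higher, 0.00817% lower and 11.5% had an unadjusted p under 0.05. The difference of the change between the lines passed for 0 higher and 7 lower in HepG2 minus LX2 (0.36% and 0.825% of all genes), and without 1 array for 0 to 6 higher and 3 to 12 lower. Between untreated HepG2 and LX2 29 were higher and 79 lower (17.7% and 40.5% of all genes).

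**Figure D3:**
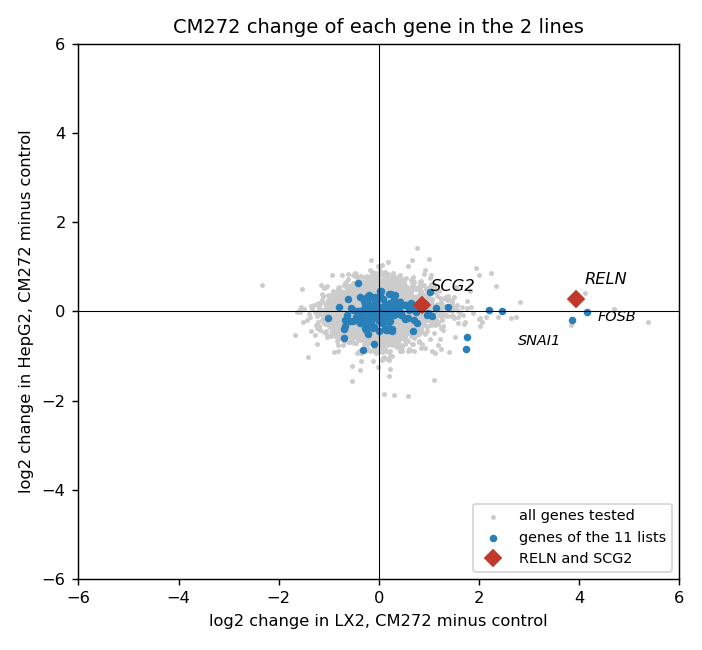
Log2 change with CM272 in HepG2 (vertical axis) against that in LX2 (horizontal axis) for the 12239 tested genes; grey points are all genes, blue points the genes of 11 lists, red diamonds RELN and SCG2. RELN lies at 3.93 in LX2 and 0.29 in HepG2, near FOSB (4.16 and -0.02) and SNAI1 (3.86 and -0.18), and SCG2 at 0.86 and 0.13.

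Of the 20 nearest tested neighbours of RELN and SCG2 1 rose and 2 fell with CM272 in LX2, where 3.79% of all genes rose and 4.63% fell. Gene order was taken from the RefSeq table, and genes without a named or tested probe set drop out of it. Of the 10 nearest tested neighbours of RELN on chromosome 7 0 rose and 1 fell in LX2 with CM272, PUS7, a pseudouridine synthase (-0.79, SE 0.16, limma adjusted p = 0.0218), and changes ran from -0.79 to 0.76. The adjoining genes were PMPCB, a mitochondrial processing peptidase subunit (-0.10), and the non-coding LINC01004 (0.53, limma adjusted p = 0.183). Of the 10 neighbours of SCG2 on chromosome 2 EPHA4, an ephrin receptor, rose (1.25, SE 0.22, limma adjusted p = 0.0127) and CUL3, a ubiquitin ligase scaffold, fell (-0.56, SE 0.14, 0.0446). Next to SCG2 lay MOGAT1, a monoacylglycerol acyltransferase (-0.01), and WDFY1 (-0.26), neither past the threshold. The calls for PUS7, EPHA4 and CUL3 were all lost without LX2 control replicate 1 or LX2 control replicate 2, and those for PUS7 and CUL3 also without LX2 CM272 replicate 1 (adjusted p from 0.0554 to 0.288 in limma). CUL3 was lost without each HepG2 array as well, and PUS7 stood at -0.41 (limma adjusted p = 0.233) when all of its probe sets were averaged. No neighbour of either gene passed in HepG2 in limma (0 of 10 each), where 0% of all genes were called higher and 0.00817% lower. Between untreated HepG2 and LX2 0 of the 10 RELN neighbours were higher and 5 lower, where 17.7% of all genes were higher and 40.5% lower. RELN itself was higher, in the contrast on which it was picked. Among the neighbours of SCG2 2 were higher and 3 lower, with EPHA4 at -3.25.

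**Figure D4:**
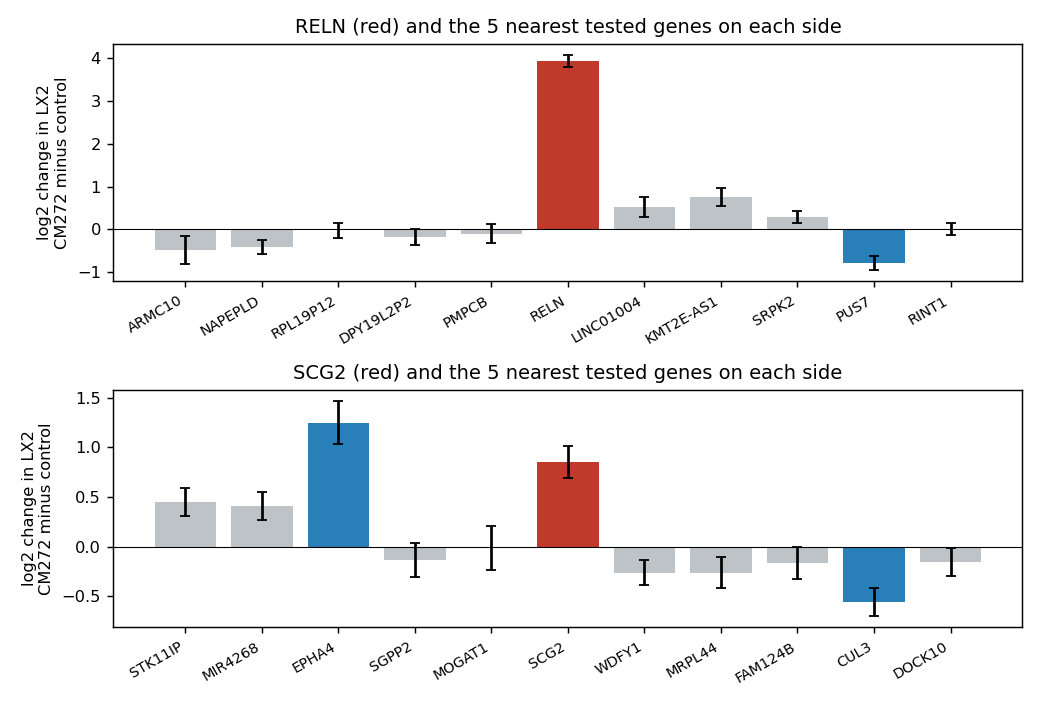
Log2 change in LX2, CM272 minus control (vertical axis), of RELN and SCG2 (red) and of their 5 nearest tested genes on each side in chromosome order; bars are changes, error bars the SE of the fit, and blue marks neighbours past the threshold. RELN stands at 3.93 among neighbours between -0.79 and 0.76, and SCG2 at 0.86 among neighbours between -0.56 and 1.25. The vertical scales of the panels differ.

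Likeness to each gene was measured as Pearson r of log2 values over the 8 arrays, which fall into 4 groups of a few close values, so that r mainly follows the group means. Most like RELN were BCL6, a transcriptional repressor (r = 0.994), SLC33A2 (0.990), the imprinted gene PEG10 (0.988), SDCBP2-AS1 (0.986) and SPATA25 (0.985). Their range was narrower than that of RELN, as for PEG10 with 9.33 and 9.64 in LX2 with CM272, 8.20 and 8.25 in LX2 control, 10.89 and 10.96 in HepG2 with CM272, and 10.74 and 10.76 in HepG2 control. Since they were picked for a profile like that of RELN, their differences in LX2 are a description without a test: 1.26 for PEG10, 1.17 for SPATA25, 0.72 for SDCBP2-AS1, 0.67 for SLC33A2 and 0.49 for BCL6, against 3.93 for RELN. Most like SCG2 were RSPH4A, a radial spoke protein of cilia (0.999), JAG2, a Notch ligand (0.995), MCOLN1, a lysosomal cation channel (0.993), MRPS27, a mitochondrial ribosomal protein (0.992), and CD163L1, a scavenger receptor (0.992). RSPH4A read 5.60 and 5.67 in LX2 with CM272, 5.07 and 5.25 in LX2 control, 4.79 and 4.74 in HepG2 with CM272, and 4.60 and 4.71 in HepG2 control. By Spearman rho, where 20 genes tied at 1 for RELN and 10 for SCG2, only BCL6 and MRPS27 of these 10 were among the tied genes. For SCG2 all HepG2 arrays and LX2 control replicate 1 lay under the filter of log2 4. Its r and rho rest largely on those dim values, so likeness to SCG2 cannot be relied on.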

How the data were processed

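The deposited values were log2 expression values per probe set from Affymetrix arrays, normalized with RMA by the authors, per the submitters' processing notes; the genome build of the array annotation is not given in the sources used here. Of 48416 probe sets 16098 had 1 symbol in the platform annotation, 0 had several and 32318 had none. Each of 14884 symbols was represented by its brightest probe set (mean of the 8 arrays), and genes over log2 4 in both arrays of at least 1 group (12239) were tested. Array medians lay between 4.19 and 4.54, and the number of arrays limits the precision: an exact permutation test of 2 arrays against 2 cannot go below 0.333. limma 3.58.1 (R 4.3.3) fitted a mean per group over all 8 arrays, with two-sided moderated tests and Benjamini-Hochberg adjustment over all genes tested (threshold 0.05); the code was tested on simulated data. Intervals are at 95%.

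RELN, SCG2 and the gene lists were chosen with earlier results of these data known. Named were, in each list and comparison, up to 4 called genes with the largest change whose groups did not overlap, or up to 2 where none passed, besides a fixed set of reelin, granin, REST and target genes, the 5 genes most like each, and the adjoining neighbours and those called; ARC, EGR3 and the marker genes were named after their values were seen, and not every gene named by the rule is described. Alternatives were other scalings, filters, probe-set rules, fits and the omission of each array. Promoter sequence and gene order came from RefSeq (GRCh38.p14). Replicate numbers were not used to pair arrays in the main fit. Deviations of same-numbered arrays correlated at 0.077 in LX2 and 0.069 in HepG2 between treatments. With 2 arrays in each group this cannot show whether same-numbered arrays were prepared together.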

Additional observations from a re-analysis of the deposited data

Results flagged for a closer look

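Listed here are 9 genes named above, picked by a threshold on the adjusted p of the difference in CM272 change between the lines. For RELN and PEG10 this was a listing rule and not a test. Values are on the log2 scale as HepG2 minus LX2. Over all genes 0.36% were called higher and 0.825% lower in this difference. The threshold came from the same limma fit. It also picked RELN, which was chosen on its response in LX2, and PEG10, which was picked for a profile like that of RELN. For both the listing is a description, and no p is given. The others were named for large changes in LX2, and the difference uses the same LX2 arrays. Their adjusted p are therefore not independent of the naming. For RELN it was -3.65, from 0.29 in HepG2 and 3.93 in LX2. FOSB gave -4.18 (-0.02 in HepG2 and 4.16 in LX2, adjusted p = 2.45e-05) and SNAI1 -4.04 (-0.18 and 3.86, 2.56e-05). EGR1 gave -2.59 (-0.84 in HepG2 and 1.75 in LX2, limma adjusted p = 0.00868) and ATF3 -2.35 (-0.58 and 1.76, 0.00915). NPPC gave -2.46 (0.01 in HepG2 and 2.46 in LX2, limma adjusted p = 0.00405), PTGS2 -2.17 (0.04 and 2.21, 0.0158) and STC1 -1.29 (0.11 and 1.39, 0.0302). PEG10 gave -1.09, from 0.17 in HepG2 and 1.26 in LX2. SCG2, at -0.72, is given without a test. Groups of 2 arrays are too small to test for an array that stands apart.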

How the results depend on the processing

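The log2 differences of RELN and SCG2 kept their direction under every alternative that gave a value; a filter at log2 6 removed SCG2, and fitting each line alone gives no difference of change. Without 1 array RELN differed by 3.84 to 4.03 in LX2 and SCG2 by 0.69 to 1.03, and the HepG2 minus LX2 change of SCG2 ran from -0.89 to -0.55. Centring arrays on their medians gave 6.61 for RELN and -0.75 for SCG2 between HepG2 and LX2 controls. SCG2 did not pass in HepG2 in limma under any alternative that gave a value. Its HepG2 values all lie under the filter of log2 4, so this cannot show that a response was absent. List genes higher in LX2 with CM272 (18) numbered 11 with each line fitted alone and 11 with array weights, and 6 to 29 without 1 array. Those lower (6) numbered 3 under either quantile normalization, 10 centred, 12 with the filter at log2 6, 11 with a trended robust prior, 0 with each line alone, 2 with array weights and 0 to 18 without 1 array. The difference of change had 1 higher call with the filter at log2 6 and 1 with the trended prior (0 otherwise), and 0 to 6 higher and 3 to 12 lower without 1 array. Between control lines list genes split 43 higher and 65 lower on quantile-normalized arrays and 42 and 67 centred, against 29 and 79. With the replicate number as a block, lower list calls in LX2 were 3, RELN in HepG2 was 0.29 and SCG2 0.13 (limma adjusted p = 0.795). By Spearman rho 1 of the 5 genes most like RELN and 1 of the 5 most like SCG2 were among those tied highest. Over all genes, LX2 calls numbered 464 higher and 567 lower, but 82 and 16 without LX2 control replicate 1, 51 and 5 without LX2 control replicate 2, and 906 and 1587 without LX2 CM272 replicate 2; 132 and 66 with each line alone, and 139 and 144 with array weights. The causes were not tested.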
